A study of Mus musculus with 9 samples.

Results

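The genes of MHC class II antigen presentation were followed in bulk RNA-seq of mouse retina. The 7 genes, Cd74, H2-Aa, H2-Ab1, H2-Eb1, H2-DMa, H2-DMb1 and Ciita, were taken by their symbol from the 22337 genes of the expression table, each symbol matched 1 identifier, and all 7 passed the filter on low counts in every comparison. The retinas were collected at P28 from 3 groups with 3 libraries each. WT mice were C57 BL/6J mice from another supplier than the rd10 mice, and they were not injected. The rd10 mice carry a missense mutation in Pde6b, the beta subunit of the rod phosphodiesterase, in every cell, and their rods and then their cones die. Littermates of the rd10 line received either normal saline (NS) or extracellular vesicles released by human umbilical cord mesenchymal stem cells (MSC-EVs), 1 μL in both eyes at P14 and again at P21, by an injection that most of the descriptions place in the vitreous. Genotype and injection therefore cannot be told apart in a comparison with WT. The age was shared by all groups, and no sex was given for any mouse.

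MHC class II molecules are cell surface proteins that show peptides from engulfed or internalized material to CD4+ T cells. An alpha and a beta chain are assembled with the invariant chain, which fills the groove and guides the complex to endosomes. There, proteases digest the invariant chain, and H2-DM exchanges its last fragment for a peptide. Transcription of the whole pathway depends on the coactivator CIITA, which has no DNA-binding domain of its own and docks on factors bound to paired sequence boxes, named X and Y, upstream of the class II genes. In the healthy retina class II is sparse, and microglia, perivascular macrophages and infiltrating myeloid cells are the cells known to gain it in disease.

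The paired boxes are shown because they are the sequence feature that these genes are known to share. Promoter windows of RefSeq (GRCm38.p6), which run from 250 bases before to 50 bases after a transcription start, were at hand for 4 of the 7 genes: H2-Aa, H2-Eb1, H2-DMb1 and H2-DMa. An X box was searched as CTNNNAAC and a Y box as TGATTGG, on the strand of the gene, with 15 to 40 bases between them. The letters were chosen after these windows had been read, so that a match describes the window and does not test it. The pair in this order was present on that strand in the windows of H2-Aa, H2-Eb1 and H2-DMb1. Over all 32851 windows, a match on either strand was counted, which is a wider rule. By it the pair was in 0.189% of the windows, the X box letters alone in 41.1% and the Y box letters alone in 7.82%. The stretches follow 5′ to 3′ on the strand of the gene, with the X box and the Y box in capitals.
H2-Aa, chr17:34287863-34287911, minus strand: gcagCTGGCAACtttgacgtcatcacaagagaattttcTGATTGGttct
H2-Eb1, chr17:34305769-34305816, plus strand: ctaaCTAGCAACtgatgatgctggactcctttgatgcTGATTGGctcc
H2-DMb1, chr17:34153090-34153138, plus strand: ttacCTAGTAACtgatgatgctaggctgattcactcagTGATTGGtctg
H2-Ob, chr17:34238811-34238856, plus strand: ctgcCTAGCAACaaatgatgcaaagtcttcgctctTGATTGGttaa
The boxes were 26 bases apart in H2-Aa and H2-DMb1, 25 in H2-Eb1 and 23 in H2-Ob, the beta chain of an H2-DM inhibitor, which is printed beside them as a class II gene with low counts. The first printed base lay 88 bases upstream of the start in H2-Aa, 98 in H2-Eb1, 101 in H2-DMb1 and 94 in H2-Ob. These distances are from the RefSeq start, which for H2-DMb1 lies inside the span that GENCODE gives the gene. Neither of the windows of H2-DMa held the pair with these letters. Of the other class II genes with low counts that were looked up, H2-DMb2 had the pair, 26 bases apart, and H2-Oa did not.

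Library totals lay between 19491717 and 62532343 counts, and MSC-EVs replicate 3 was the deepest. Levels are given as CPM, in which counts are scaled to the library size and to TMM factors, and 1 count was worth between 0.0155 and 0.05 CPM. MSC-EVs replicates 1 and 2 stood apart from the other 7 libraries in 4 Y-linked genes (Kdm5d, Uty, Ddx3y and Eif2s3y), which summed to 183 and 189 CPM in them and to at most 0.5 CPM elsewhere. Only MSC-EVs libraries carried these transcripts, so that MSC-EVs treatment and sex, which they mark, cannot be fully told apart. The results of the 7 class II genes with MSC-EVs are therefore also given without MSC-EVs replicates 1 and 2. The 9 markers of retinal neurons were present in every library, and Gnat1, the rod transducin alpha subunit, fell in NS-treated rd10 against WT (log2 fold change −2.13). Nothing in the descriptions says which animals the libraries came from, so that p-values measure the spread between these samples.

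In NS-treated rd10 retina, 6 of the 7 class II genes were differentially expressed and higher than in WT, which here means an adjusted p under 0.05 and a log2 fold change of at least 1. Of all 14644 genes tested, 9.16% were called in this direction. The rises were 66.3-fold for Cd74, 66.4-fold for H2-Eb1, 34.6-fold for H2-Aa, 11.2-fold for H2-Ab1, 7.91-fold for H2-DMb1 and 2.53-fold for H2-DMa. Ciita, the coactivator of the pathway, was the gene that did not pass. For the 6 genes called, each NS library was above each WT library, as it was for 33.7% of all genes. The median log2 fold change was 3.48 over the 7 genes and 0.0053 over all genes tested.

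Cd74 (ENSMUSG00000024610, chromosome 18, plus strand) encodes the invariant chain. It had 0.359, 0.224 and 0.400 CPM in WT, 27.0, 25.1 and 13.5 CPM in NS-treated rd10 and 28.1, 39.7 and 9.53 CPM in MSC-EVs-treated rd10. Every rd10 library lay above every WT library, and the MSC-EVs libraries spanned the NS libraries on both sides. Between NS-treated rd10 and WT the log2 fold change was 6.05 ± 0.41 (SE, edgeR adjusted p = 6.57e-06), and 29 of the genes tested rose more. Behind the WT level were 21 counts over the 3 libraries, so that the ratio of the pooled counts, 68.8, had a 95% counting interval of 44.9 to 111. Per transcript length, Cd74 moved from above 37.0% of the genes of the table in WT to above 79.7% in NS-treated rd10.

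H2-Aa (ENSMUSG00000036594, GRCm38 chr17:34282744-34287823, minus strand) and H2-Ab1 (ENSMUSG00000073421, chr17:34257689-34269419, plus strand) encode the alpha and the beta chain of the I-A molecule. H2-Aa was measured at 0.404, 0.358 and 0.450 CPM in WT, 16.9, 15 and 10.3 CPM in NS-treated rd10 and 18.2, 29.2 and 6.40 CPM in MSC-EVs-treated rd10. H2-Ab1 was measured at 1.26, 0.806 and 0.751 CPM in WT, 11.7, 12.5 and 7.51 CPM in NS-treated rd10 and 12.3, 18.5 and 4.21 CPM in MSC-EVs-treated rd10. For both chains all rd10 libraries were above all WT libraries, with MSC-EVs replicate 2 the highest and MSC-EVs replicate 3 the lowest of the rd10 libraries. The log2 fold change between NS-treated rd10 and WT was 5.11 ± 0.26 for H2-Aa (SE, edgeR adjusted p = 1.57e-08) and 3.48 ± 0.26 for H2-Ab1 (edgeR adjusted p = 4.33e-07).

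H2-Eb1 (ENSMUSG00000060586, chr17:34305867-34316674, plus strand) encodes the beta chain of the I-E molecule. It held 5, 1 and 2 counts in the WT libraries, 301, 186 and 140 counts in NS-treated rd10 and 240, 358 and 213 counts in MSC-EVs-treated rd10. These are 0.224, 0.0448 and 0.1 CPM in WT, 10.2, 9.11 and 6.41 CPM in NS-treated rd10 and 10.03, 15.3 and 3.31 CPM in MSC-EVs-treated rd10. WT was close to the detection limit, while each rd10 library had more than 3 CPM. The log2 fold change between NS-treated rd10 and WT was 6.05 ± 0.36 (SE, edgeR adjusted p = 5.34e-08). With 8 pooled WT counts, the pooled ratio of 70.5 had a counting interval of 35.6 to 164. The alpha chain of I-E, H2-Ea, is known to be inactive in the C57BL/6 haplotype, and it had 0 counts in all 9 libraries.

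H2-DMa (ENSMUSG00000037649, chr17:34119541-34139101, plus strand) and H2-DMb1 (ENSMUSG00000079547, chr17:34153072-34160230, plus strand) encode the chains of H2-DM, the peptide exchanger. H2-DMa had 3.05, 2.06 and 2.80 CPM in WT, 6.76, 7.01 and 6.32 CPM in NS-treated rd10 and 6.56, 8.62 and 5.24 CPM in MSC-EVs-treated rd10. H2-DMb1 had 0.179, 0.671 and 0.150 CPM in WT, 2.77, 3.63 and 1.78 CPM in NS-treated rd10 and 2.22, 2.77 and 1.31 CPM in MSC-EVs-treated rd10. Neither gene had a WT library within the range of its rd10 libraries. H2-DMa rose by 1.34 ± 0.18 on the log2 scale between NS-treated rd10 and WT (SE, edgeR adjusted p = 3.96e-05), the smallest of the 6 rises, and H2-DMb1 by 2.98 ± 0.47 (edgeR adjusted p = 2.09e-04). H2-DMb1 shared 22.7% of its 50-base stretches with another gene, and 24.8% of those of its neighbour H2-DMb2 were shared, so that the split of reads between near-identical copies is uncertain. Exons of H2-DMa overlap exons of Brd2 on the other strand, and Brd2 differed by −0.20 between NS-treated rd10 and WT and by −0.06 between MSC-EVs-treated rd10 and WT on the log2 scale.

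Ciita (ENSMUSG00000022504, chr16:10480059-10528418, plus strand) encodes the coactivator. It held 11, 5 and 7 counts in WT, 17, 12 and 8 counts in NS-treated rd10 and 37, 24 and 40 counts in MSC-EVs-treated rd10. In CPM, the WT libraries had 0.493, 0.224 and 0.350, the NS libraries 0.574, 0.588 and 0.366 and the MSC-EVs libraries 1.55, 1.02 and 0.622. The WT and NS libraries overlapped, whereas each MSC-EVs library was above each NS library and each WT library. The log2 fold change between NS-treated rd10 and WT was 0.52 ± 0.45 (SE, edgeR adjusted p = 0.332), and the pooled ratio of 1.45 had a counting interval of 0.837 to 2.55. At this depth a change of that size was not detectable. Exons of Ciita overlap exons of Dexi on the other strand, and Dexi differed by 0.10 between NS-treated rd10 and WT, by −0.05 between MSC-EVs- and NS-treated rd10 and by 0.05 between MSC-EVs-treated rd10 and WT.

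**Figure D1:**
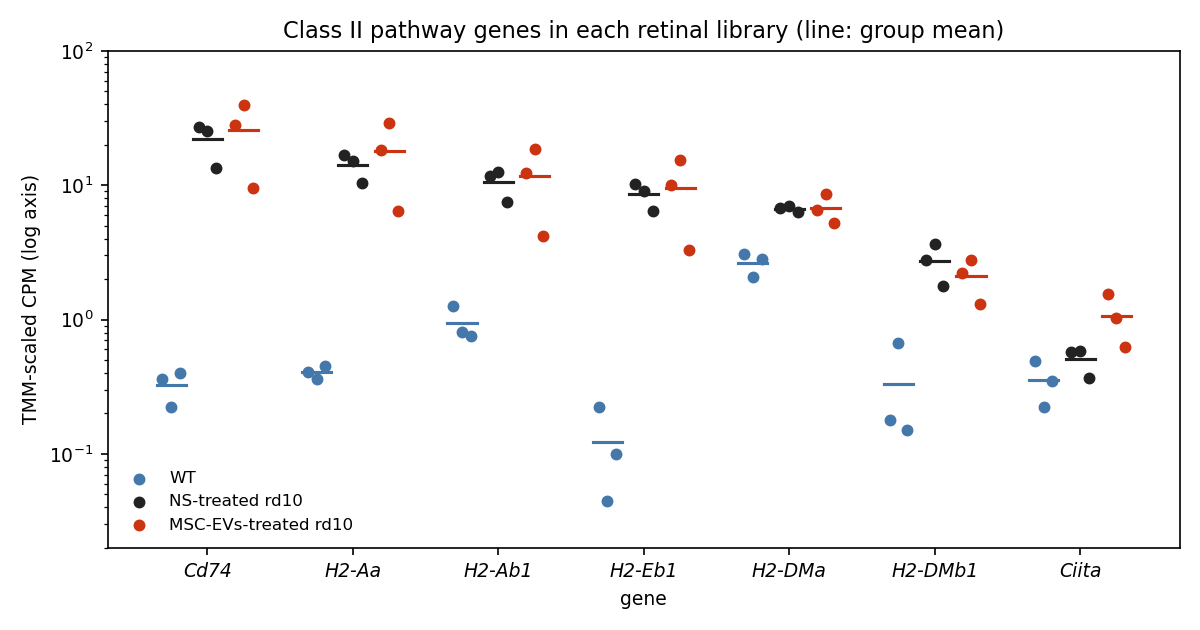
Level of each class II pathway gene in each library, as TMM-scaled CPM on a log axis, with 1 point per library in the order of the replicate numbers and a line at the mean of the group. For 6 genes all rd10 points lie above all WT points, as the NS points did for 33.7% and the MSC-EVs points for 31.9% of all genes tested in their comparisons, and for Ciita the WT points (0.224 to 0.493) and NS points (0.366 to 0.588) overlap.

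The order of the genes within a group was read from FPKM, which is scaled to transcript length. In WT the level was 1.79 ± 0.278 FPKM for H2-DMa (SD, n = 3) and 0.730 ± 0.204 FPKM for H2-Ab1, and these were followed by H2-Aa at 0.333 ± 0.0351, Cd74 at 0.230 ± 0.0608, H2-DMb1 at 0.223 ± 0.197, Ciita at 0.113 ± 0.0603 and H2-Eb1 at 0.107 ± 0.0764 FPKM. The ranges of H2-DMa, H2-Ab1 and H2-Aa were separate, those of Cd74, H2-DMb1, Ciita and H2-Eb1 ran into each other, and that of H2-DMb1 also covered H2-Aa. In NS-treated rd10 the order was Cd74 at 17.99 ± 5.89, H2-Aa at 13.02 ± 3.03, H2-Ab1 at 9.12 ± 2.29, H2-Eb1 at 6.44 ± 1.65, H2-DMa at 5.36 ± 0.523, H2-DMb1 at 2.03 ± 0.685 and Ciita at 0.130 ± 0.0265 FPKM. Neighbours in this order overlapped down to H2-DMa, and H2-DMb1 and Ciita lay below without overlap. MSC-EVs-treated rd10 had the same order, from Cd74 at 21.1 ± 12.5 to Ciita at 0.267 ± 0.151 FPKM. By these means H2-DMa was the most abundant of these transcripts in WT and the fifth in both rd10 groups, although its place varied between the rd10 libraries.

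The proportions of the chains differed accordingly. The FPKM ratio of H2-Aa to H2-Ab1, partners in the I-A molecule, was 0.344, 0.455 and 0.649 in WT, 1.55, 1.28 and 1.48 in NS-treated rd10 and 1.57, 1.69 and 1.63 in MSC-EVs-treated rd10. More beta than alpha chain transcript was thus measured in each WT library, and more alpha than beta chain transcript in each rd10 library. The log2 ratio differed by 1.62 between NS-treated rd10 and WT (exact two-sided permutation test, p = 0.1, the smallest that 3 against 3 libraries allow, and 0.164 after adjustment over 18 such tests). The ratio of H2-Eb1 to H2-Ab1 was 0.198, 0.0606 and 0.158 in WT, 0.776, 0.642 and 0.704 in NS-treated rd10 and 0.694, 0.694 and 0.623 in MSC-EVs-treated rd10, a log2 difference of 2.51 between NS-treated rd10 and WT (exact permutation p = 0.1). The ratio of Cd74 to H2-Aa was 0.788, 0.533 and 0.730 in WT and between 1.17 and 1.47 in the rd10 libraries, a log2 difference of 1.00 (exact permutation p = 0.1). Across the 6 rd10 libraries these ratios ran from 1.28 to 1.69, 0.623 to 0.776 and 1.17 to 1.47, while the level of a chain differed by up to 4.61 times. The WT ratios rest on few counts. The ratio of H2-DMa to H2-DMb1 was 16.4, 3.27 and 19.3 in WT against 2.68, 2.15 and 3.59 with NS, with overlapping ranges.

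**Figure D2:**
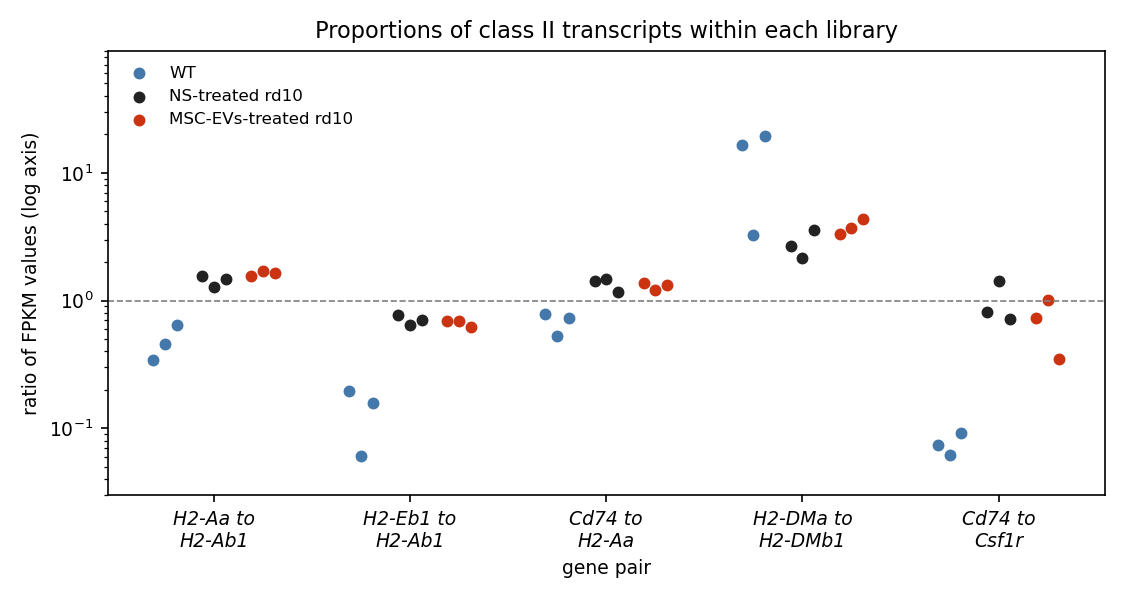
Ratios of FPKM values for 5 gene pairs within each library, on a log axis, with 1 point per library and a dashed line at equal values. For H2-Aa to H2-Ab1 the WT libraries lie between 0.344 and 0.649 and the rd10 libraries between 1.28 and 1.69, and for Cd74 to Csf1r the rd10 libraries spread from 0.348 to 1.43, above the WT libraries.

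Against WT, MSC-EVs-treated rd10 retina had all 7 class II genes differentially expressed and higher, where 9% of the 14623 genes tested were called in this direction. For each of the 7, all MSC-EVs libraries were above all WT libraries, as they were for 31.9% of all genes. The log2 fold changes were 6.28 ± 0.87 for Cd74 (SE, edgeR adjusted p = 2.70e-03), 6.2 ± 0.92 for H2-Eb1, 5.45 ± 0.82 for H2-Aa, 3.61 ± 0.67 for H2-Ab1, 2.59 ± 0.53 for H2-DMb1 and 1.36 ± 0.23 for H2-DMa. Ciita rose by 1.52 ± 0.47 (edgeR adjusted p = 0.0195). Without MSC-EVs replicates 1 and 2, where the lone MSC-EVs library is assumed to vary like the WT libraries, 5 of the 7 were called. Ciita was then at 0.80 (edgeR adjusted p = 0.249), H2-DMa fell just short of the fold limit, and Cd74 was at 4.86. The Ciita call was also lost without MSC-EVs replicate 1 (edgeR adjusted p = 0.077), without WT replicate 2 (0.0837) and without WT replicate 3 (0.0651), and in limma on log2(FPKM + 1) (0.167).

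Between MSC-EVs- and NS-treated rd10 retina, 0 of the 7 class II genes were differentially expressed by edgeR, where 0.061% of the 14765 genes tested were called. At an unadjusted p under 0.05 there was 1 gene, Ciita, by edgeR and 0 by the Wald test of DESeq2 or by limma, beside 20.2% of all genes by edgeR. The log2 fold changes were 0.21 ± 0.59 for Cd74 (SE), 0.32 ± 0.59 for H2-Aa, 0.11 ± 0.57 for H2-Ab1, 0.12 ± 0.57 for H2-Eb1, 0.02 ± 0.19 for H2-DMa and −0.40 ± 0.34 for H2-DMb1. For the I-A, I-E and invariant chains the standard errors exceeded the differences themselves, and a change in either direction of the size of these errors would not have been detected. H2-DMa was measured more tightly.

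Ciita had a log2 fold change of 1.00 ± 0.43 between MSC-EVs- and NS-treated rd10 (SE, edgeR unadjusted p = 0.0417, adjusted p = 0.227). Each MSC-EVs library was above each NS library, as was so for 12.7% of all genes tested. The pooled counts of 101 and 37 gave a ratio of 1.76 with a counting interval of 1.19 to 2.63. Such intervals leave out the spread between libraries, and MSC-EVs replicate 3 holds the largest share of the pooled depth. Pooled likewise, Cd74 had 0.887 (0.832 to 0.947) and H2-Ab1 0.839 (0.763 to 0.923). H2-Eb1 had 0.832 (0.749 to 0.925) and H2-DMb1 0.666 (0.545 to 0.816). For H2-Aa (0.956) and H2-DMa (0.931) the interval included no change. The fitted changes of Cd74, H2-Ab1 and H2-Eb1 had the other sign. Over the removal of each library in turn the log2 fold change of Ciita ran from 0.64 without MSC-EVs replicate 1 to 1.32 without MSC-EVs replicate 3. It was 0.29 without both libraries that carried Y-linked transcripts (edgeR adjusted p = 0.815). In FPKM the groups overlapped, with 0.12, 0.11 and 0.16 in NS-treated and 0.44, 0.20 and 0.16 in MSC-EVs-treated rd10.

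**Figure D3:**
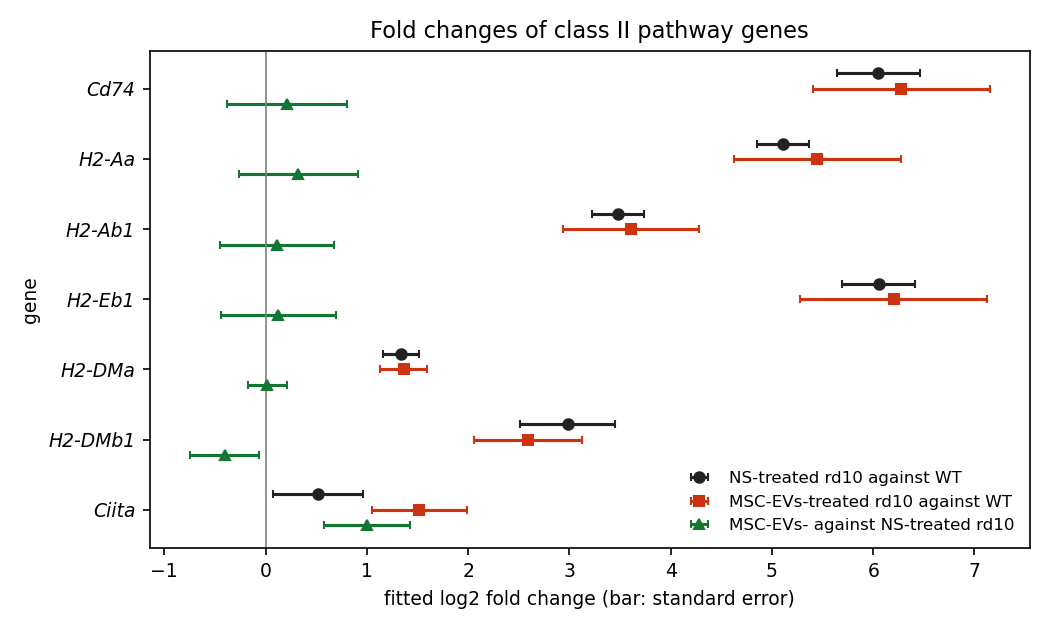
Fitted log2 fold change of each class II pathway gene in the 3 comparisons, with bars of 1 standard error. Against WT all points but that of Ciita in NS-treated rd10 (0.52) lie above 1, and between the rd10 groups the points lie between −0.40 and 1.00.

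The spread between the MSC-EVs libraries was large for the class II genes. MSC-EVs replicate 2 was the highest of the 6 rd10 libraries for 5 of the 7 genes, and MSC-EVs replicate 3 the lowest for 6 of them. Over all genes tested, 16.3% were highest in the former and 20% lowest in the latter. Cd74 and H2-Aa had the same order of libraries, MSC-EVs 2, MSC-EVs 1, NS 1, NS 2, NS 3 and MSC-EVs 3. The highest library had 4.17 times the level of the lowest for Cd74, 4.56 times for H2-Aa, 4.40 times for H2-Ab1 and 4.61 times for H2-Eb1, but 1.65 times for H2-DMa. Ciita had another order, with the 3 MSC-EVs libraries first.

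The direction of the difference between the rd10 groups depended on these libraries. Without MSC-EVs replicate 3 the log2 fold changes were 0.63 for Cd74, 0.75 for H2-Aa, 0.54 for H2-Ab1 and 0.56 for H2-Eb1, and without MSC-EVs replicate 2 they were −0.26, −0.24, −0.41 and −0.41. Without MSC-EVs replicates 1 and 2, the libraries with Y-linked transcripts, a lone MSC-EVs library was left, and the values were −1.19, −1.13, −1.32 and −1.36 (edgeR adjusted p = 0.278, 0.0840, 0.0701 and 0.0516), where the lone library is assumed to vary like the NS libraries. No class II gene was called in any of these fits, and 3, 0 and 4 of the 7 had an unadjusted edgeR p under 0.05 in them, beside 18.7%, 22.7% and 18.4% of all genes tested. Without NS replicate 3 the differences were near 0, at −0.029 for Cd74, −0.070 for H2-Ab1, −0.036 for H2-Eb1 and −0.019 for H2-DMa, and H2-Aa was at 0.15.

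**Figure D4:**
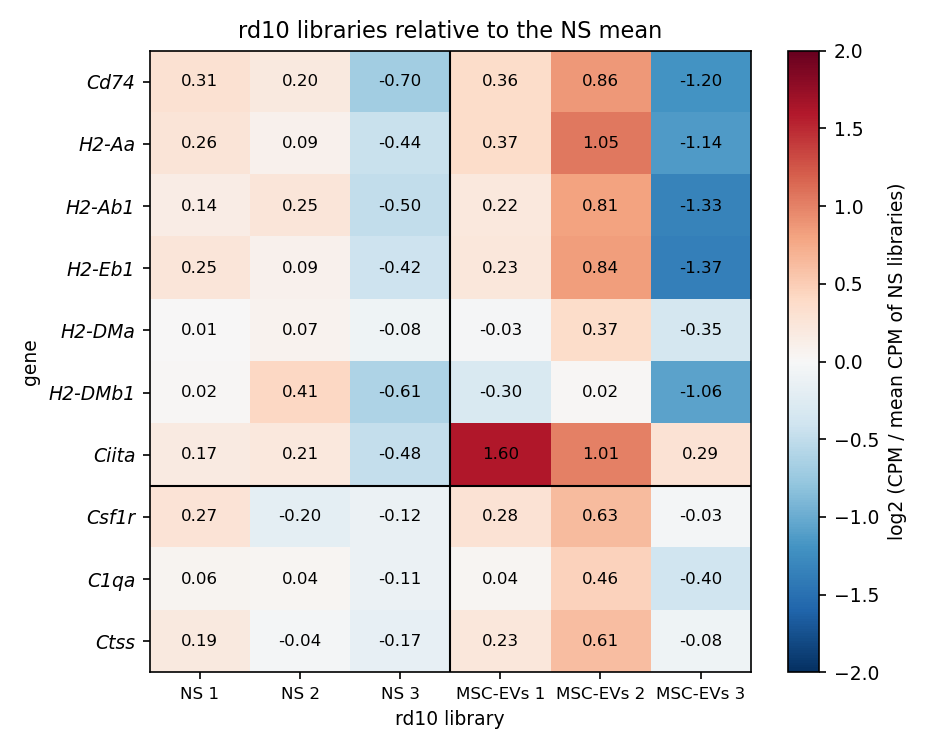
Log2 ratio of the level in each rd10 library to the mean of the NS libraries, for the 7 class II pathway genes and, under the line, for Csf1r, C1qa and Ctss, with the number in each cell. MSC-EVs replicate 3 is at −1.20 for Cd74 and −0.03 for Csf1r, and MSC-EVs replicate 2 at 0.86 and 0.63.

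Markers of myeloid cells moved with the class II genes. The 12 markers of microglia and macrophages summed to 73.3 to 76.8 CPM in WT, to 338 to 417 CPM in NS-treated rd10 and to 280, 418 and 489 CPM in MSC-EVs-treated rd10, and MSC-EVs replicates 3 and 2 were the lowest and the highest rd10 library here as well. Between WT and NS-treated rd10, 10 of these markers were called higher, with a median log2 fold change of 2.19, and 12 in MSC-EVs-treated rd10 (9 without MSC-EVs replicates 1 and 2). They included Csf1r, a growth factor receptor of these cells (2.44 ± 0.13), C1qa (3.54) and Cd68 (4.37). In bulk retina, more cells of a type and more RNA per cell cannot be told apart. The FPKM ratio of Cd74 to Csf1r was 0.0737, 0.0618 and 0.0918 in WT, 0.813, 1.43 and 0.720 in NS-treated rd10 and 0.734, 1.01 and 0.348 in MSC-EVs-treated rd10. The log2 ratio differed by 3.65 between NS-treated rd10 and WT (exact permutation p = 0.1, adjusted 0.164), and by −0.57 between MSC-EVs- and NS-treated rd10 (exact permutation p = 0.5), with overlapping libraries.

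Other cell types that can carry class II were looked for by their markers. The 7 markers of monocytes and neutrophils summed to at most 0.224 CPM in WT. The sums were 13.9, 6.27 and 4.39 CPM in NS-treated rd10 and 14.1, 11.99 and 2.46 CPM in MSC-EVs-treated rd10. S100a8 and S100a9 had 0 summed counts in WT and 13 to 16 in the rd10 groups. Ly6g had 4, 0 and 1 in WT, NS- and MSC-EVs-treated rd10, and Mpo 0, 2 and 0. These 4 markers were not tested. Of this list 3 were tested, Ccr2, Ly6c2 and Plac8, all known from monocytes. Their log2 fold changes between NS-treated rd10 and WT were 5.14, 6.74 and 7.03. Behind these were 2, 2 and 1 summed counts in WT and 95, 304 and 205 with NS. The 3 genes thus passed the filter through the NS libraries alone, so that only a rise could be found. Of the 9 dendritic cell markers, 4 were tested and Itgax, an integrin that activated microglia also express, was called (5.82). The sums of that list were 11.3 to 12.2 CPM in WT, 17.2 to 22.2 CPM in NS-treated and 15.6 to 21.9 CPM in MSC-EVs-treated rd10, while Batf3 had at most 2 counts and Clec9a at most 7 in any library. Zbtb46 (mean 8.68 CPM) and Flt3 (2.44 CPM) made up most of the WT sums. Itgax went from a mean of 0.080 CPM in WT to 4.69 CPM with NS. With 5 summed counts in WT, it too passed the filter through the NS libraries alone. Zbtb46, a dendritic cell transcription factor, was at 0.31 between NS-treated rd10 and WT (edgeR adjusted p = 0.0420), below the fold limit. Among the markers that were not tested in that comparison, Ccr7, a homing receptor of migrating dendritic cells, had 0 to 1 counts in WT and 6 to 27 in rd10, and Cd209a 0 counts in WT and 1 to 11 in rd10. B cell markers summed to 0.895 to 1.44 CPM in WT, 1.33 to 2.33 CPM in NS-treated and 1.65 to 2.35 CPM in MSC-EVs-treated rd10, with Cd79a at 0 to 2 counts and Ms4a1 at 0 to 4. Most of these sums was Pax5, with means of 0.918 CPM in WT, 1.10 CPM with NS and 1.49 CPM with MSC-EVs. Cd79b, a chain of the B cell receptor complex, had 0 to 2 counts in WT and 7 to 15 in rd10. T cell markers summed to 1.21 to 1.70 CPM in WT, 4.94 to 6.35 CPM in NS-treated and 3.26 to 8.32 CPM in MSC-EVs-treated rd10, with Cd3e at 0 counts in WT and 0 to 15 in rd10. Of that list 2 were tested, and both were called higher with NS than in WT, Cd8a (1.23) and Lck (2.21). These 2 made up most of the sums, with means of 0.896 and 0.389 CPM in WT and 2.12 and 1.80 CPM with NS. Among the 7 markers of macrophages at the borders of the tissue, 4 were tested, and Mrc1 (3.99), F13a1 (5.52) and Stab1 (2.85) were called higher. Mrc1 and F13a1 had 8 and 2 summed counts in WT and likewise passed the filter through the NS libraries alone. The fourth, Lyve1, was at −0.30 (edgeR adjusted p = 0.0176), below the fold limit. Markers of non-immune cells were examined as well. The 6 markers of pigment epithelium summed to 36.5 to 65.5 CPM in WT, 51.9 to 202 CPM in NS-treated and 54.2 to 167 CPM in MSC-EVs-treated rd10, and Tyrp1 (2.11) and Best1 (1.33) were called higher with NS. With MSC-EVs 0 of them were called against WT, and 3 without MSC-EVs replicates 1 and 2. Endothelial markers summed to 207 to 214 CPM in WT, 338 to 370 CPM in NS-treated and 326 to 403 CPM in MSC-EVs-treated rd10, and 0 of the 5 tested were called in either comparison with WT, while 4 passed the adjusted p alone in each. The part of all these cells in the class II levels was not tested.

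The remaining class II genes of the region had low counts. H2-Oa and H2-Ob encode H2-O, an inhibitor of H2-DM that B cells are known to express, and H2-DMb2 is a near copy of H2-DMb1. H2-Ob had 3, 4 and 2 counts in WT, 24, 3 and 8 in NS-treated rd10 and 12, 15 and 40 in MSC-EVs-treated rd10. It passed the filter against WT in the MSC-EVs comparison alone, through the MSC-EVs libraries, so that only a rise could be found there. Its log2 fold change was 2.06 ± 0.45 (SE, edgeR adjusted p = 3.46e-03). The pooled ratios to WT were alike, 3.50 with NS (counting interval 1.65 to 8.27) and 4.31 with MSC-EVs (2.14 to 9.83). Between the rd10 groups H2-Ob was at 0.35 (edgeR adjusted p = 0.747). H2-DMb2 had 1 to 2 counts in WT and 1 to 20 in rd10, H2-Oa 0 to 3 and 4 to 23, and H2-Eb2 at most 3 counts in any library.

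Proteins that load class II or take it from the surface were examined as a list of 9 genes, all tested. In NS-treated rd10, 4 were differentially expressed and higher than in WT and 0 lower. They were Ctss, the cathepsin that cleaves the invariant chain in myeloid cells (3.40 ± 0.11), Ifi30, a reductase that opens disulfide bonds of antigens (2.43 ± 0.16), Ctsd (1.67) and Ctsl (1.14), both lysosomal proteases. Ctsb (0.82) and Sppl2a, which cleaves the last membrane stub of the invariant chain (0.55), passed the adjusted p alone. Marchf1 and Marchf8, ubiquitin ligases that remove class II from the surface, were at −0.94 (edgeR adjusted p = 1.35e-03) and −0.29 (edgeR adjusted p = 1.16e-03), below the fold limit. The FPKM ratio of H2-Aa to Ctss was 0.0409, 0.0325 and 0.0484 in WT against 0.138, 0.144 and 0.109 with NS, a log2 difference of 1.69 (exact permutation p = 0.1). Against WT, MSC-EVs-treated rd10 had the same 4 genes called, Ctss (3.69), Ifi30 (2.41), Ctsd (1.55) and Ctsl (1.11).

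Of the 7 genes for factors that bind the X and Y boxes with CIITA, 0 were called higher and 1 lower between NS-treated rd10 and WT, where 3.56% of all genes were called lower. This was Nfya, a subunit of the Y box factor, at −1.12 ± 0.11 (SE, edgeR adjusted p = 7.41e-06). The other subunits were at −0.12 (Nfyb) and −0.55 (Nfyc), and the X box factors at 0.04 (Rfx5), 0.48 (Rfxank) and 0.18 (Rfxap). Rfxank (edgeR adjusted p = 2.86e-04) and Rfxap (edgeR adjusted p = 0.0453) passed the adjusted p but not the fold limit. Creb1, which binds beside them, was at −0.35. The Nfya call was lost without NS replicate 2 and in limma on either FPKM scale.

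Interferon gamma is the cytokine best known to switch on Ciita. Of 8 genes of this route, 7 were tested, and 3 of these rose between WT and NS-treated rd10. They were the transcription factors Irf8 (2.53 ± 0.18) and Irf1 (2.26 ± 0.13), and Socs1, an inhibitor of the same signal (1.31 ± 0.35). The receptor chain Ifngr1 was at −0.04 and Jak1 at −0.02, while Ifngr2 (0.46) and Jak2 (0.24) passed the adjusted p but not the fold limit. Ifng itself had 1 count in a WT library and 0 counts in the other 8 libraries. With MSC-EVs the same 3 genes were called against WT, with Irf8 at 2.93, Irf1 at 2.28 and Socs1 at 1.99.

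T cells that meet class II are steered by costimulatory proteins. Of 8 such genes, 6 were tested against WT and 4 were differentially expressed and higher in NS-treated rd10. They were Cd86, an activating ligand (3.72 ± 0.32), Icosl (1.82), the inhibitory ligand Cd274 (1.77) and Lag3, an inhibitory receptor that binds class II (1.83 ± 0.22). Cd80 was at −0.24 and Cd40 at 0.78, and neither passed the test. Cd4, the coreceptor for class II, had 3 to 4 counts in WT and 7 to 37 in rd10. In MSC-EVs-treated rd10 the same genes were called, Cd86 (4.11), Cd274 (2.27), Lag3 (2.14) and Icosl (1.73). Between the rd10 groups 0 genes were differentially expressed in the lists of loading, promoter, interferon gamma and costimulation genes. By edgeR's unadjusted p under 0.05 there were 0, 1, 2 and 1 among the 9, 7, 7 and 7 tested, beside 20.2% of all genes.

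**Figure D5:**
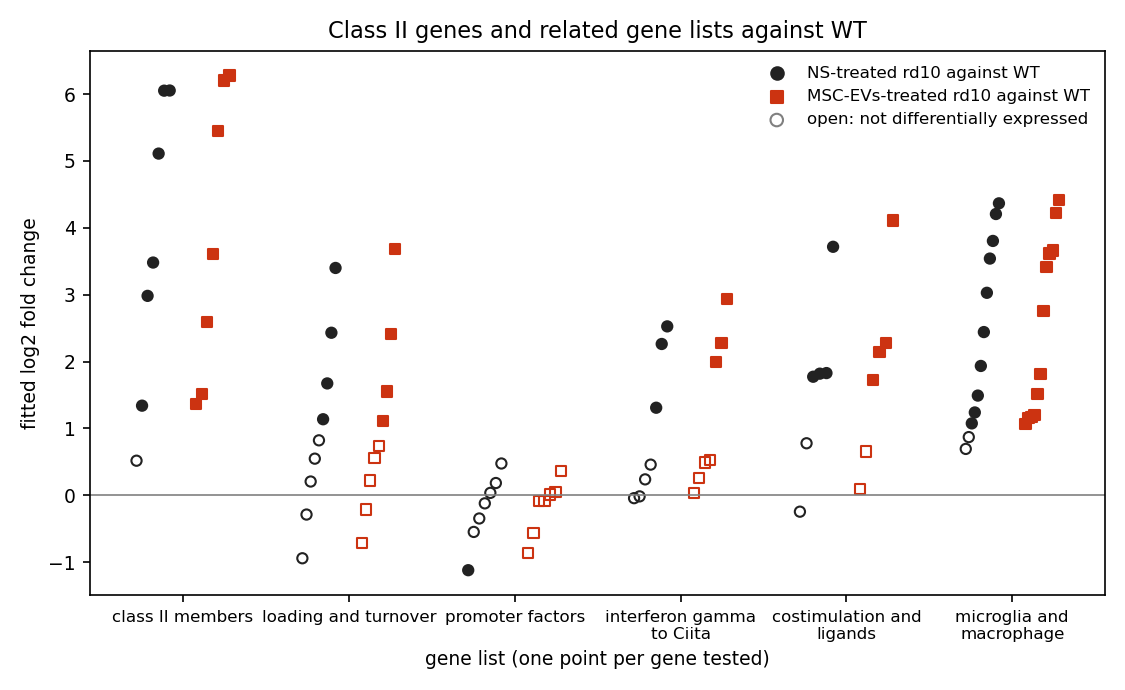
Fitted log2 fold changes against WT for the class II genes and 5 related gene lists, with 1 point per gene tested and filled points for differentially expressed genes. In NS-treated rd10 the class II genes run from 0.52 to 6.05 and the promoter factors from −1.12 to 0.48.

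The genes whose pattern over the 9 libraries was nearest to the mean pattern of Cd74, H2-Aa, H2-Ab1 and H2-Eb1 were found by the root mean square difference of their log2 levels, each relative to its WT mean. They were Clec7a, a receptor for fungal glucans (0.170), Tgfbi, a matrix protein (0.224), Cd68, a lysosomal protein of macrophages (0.248), Oas1a, an interferon-induced synthetase (0.253), and H2-Q6, a class Ib histocompatibility gene with close relatives in the table (0.283). Clec7a had 0.493, 0.358 and 0.400 CPM in WT, 15.6, 14.4 and 9.66 CPM in NS-treated rd10 and 18.1, 20.2 and 7.45 CPM in MSC-EVs-treated rd10. Like Cd74 it was highest in MSC-EVs replicate 2 and lowest, among the rd10 libraries, in MSC-EVs replicate 3. Because it was chosen for its likeness over these same libraries, this order follows from the choice and is not a separate result.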

How the data were processed

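Poly(A) RNA from retinas was sequenced on an Illumina platform. The authors deposited a table with an expected (estimated) count and an FPKM value for each gene and library. The deposited expected counts were not scaled, and the FPKM values were scaled by the authors to transcript length and depth. The submitters' processing notes name fastp, Bowtie2, HISAT2, StringTie 1.3.1 and RSEM, and no role is stated. The genome build is not given in the sources used here, nor is the use of strand. Per-sample columns left unused numbered 0.

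Between 9.16% and 11.7% of the expected counts per library carried decimals, and counts were rounded to whole numbers. Library totals ranged from 19491717 to 62532343 counts. Replicates differed by more than sampling noise (chi-square per degree of freedom of at least 4.10). Each pair of groups was fitted over the whole table in edgeR 4.0.16 (R 4.3.3; filterByExpr, TMM, robust quasi-likelihood F test), with Benjamini-Hochberg adjustment over all genes tested and a limit of 1 on the absolute log2 fold change. The design assumed no covariate. SE is the absolute log2 fold change divided by the square root of F. Pooled ratios have exact 95% intervals that cover counting error only, since no molecular identifiers are described. Ratios within a library were taken from FPKM and compared by exact two-sided permutation. Positions came from GENCODE M21 on GRCm38, which held 22232 of the 22337 identifiers.

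The genes and lists were chosen with earlier results of these data known, and 2 genes were left out of the lists and are not reported here. All 7 class II genes were named, as were list genes that passed the test or belonged to lists of under 10, marker genes needed to state whether a cell type was detected, and the 5 genes nearest in pattern, whose levels had 0.5 CPM added before the log. The tests were tested on simulated data with changes of 1.5 and 2 on the log2 scale. For NS against WT, edgeR called 94 of 95 genes changed by 1.5 and 103 of 103 changed by 2. It also called 1 unchanged gene, among 14643 tested. Recovery of smaller changes was not tested. Recovery at the spread that the class II genes had between these libraries was not tested either. The alternatives were DESeq2 1.42.0 size factors and its Wald test, no filter, all 9 libraries in 1 fit, a replicate block, limma 3.58.1 on log2(FPKM + 1) or log2(FPKM + 0.1) with a mean FPKM of at least 0.1 or no filter, no fold limit, Y-linked expression as a covariate, and libraries left out. The fits without both libraries with Y-linked transcripts, and the ratios with their alternatives, were chosen after seeing the data.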

Additional observations from a re-analysis of the deposited data

How the results depend on the processing

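The count of class II genes called in NS-treated rd10 against WT was 6 under every alternative. In MSC-EVs-treated rd10 against WT it was 7, except 6 in limma and without MSC-EVs replicate 1 or WT replicate 2 or 3, and 5 without both libraries with Y-linked transcripts. Between the rd10 groups it was 0 throughout. Differences there turned from positive to negative in several fits. In limma they were −0.040 for H2-Ab1 and −0.086 for H2-Eb1 on log2(FPKM + 1), with or without the filter, and −0.070 and −0.14 on log2(FPKM + 0.1). With the Y-linked covariate they were −1.19 for Cd74, −1.12 for H2-Aa, −1.32 for H2-Ab1, −1.36 for H2-Eb1 and −0.34 for H2-DMa (adjusted p 0.106 to 0.451), and without both libraries with Y-linked transcripts −1.19, −1.13, −1.32, −1.36 and −0.34. With each library left out in turn they ran from −0.26 to 0.63 for Cd74, −0.24 to 0.75 for H2-Aa, −0.41 to 0.54 for H2-Ab1, −0.41 to 0.56 for H2-Eb1 and −0.19 to 0.18 for H2-DMa, lowest without MSC-EVs replicate 2 and highest without MSC-EVs replicate 3. Without NS replicate 3 they turned for Cd74, H2-Ab1, H2-Eb1 and H2-DMa, to between −0.070 and −0.019. Of the related lists against WT, the calls with MSC-EVs went from 4 to 3 for loading genes, from 3 to 2 for interferon gamma genes and from 2 to 1 for T cell markers without both libraries with Y-linked transcripts. The cause was not tested.

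The replicate numbers did not pair the libraries in the comparisons with WT (correlations of same-numbered deviations −0.079 to 0.073). Between the rd10 groups these correlations were 0.088 to 0.288, and each number was its own best match. A pairing there is therefore possible, and the main fit did not use it. With the replicate block the counts called stayed at 6, 0 and 7, and between the rd10 groups H2-Ab1 was at −0.036, H2-Eb1 at −0.046 and H2-DMa at −0.0012.

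Counts limit the WT levels of H2-Eb1, H2-DMb1 and Ciita. Low genes are understated on the log2(FPKM + 1) scale, where the median over all genes was 0.13 between NS-treated rd10 and WT.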
